A study of Homo sapiens with 2 samples.

Results

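The genes of glycolysis and of the response to low oxygen were examined in SBC-3 cells depleted of HOTAIR. A total of 33 genes were taken as members by name, all but ALDOA among the 19061 genes with a named probe on the arrays. They comprised 16 enzymes of the route from glucose to lactate, 4 transporters of glucose and lactate, 3 kinases that set the flow through glycolysis, the HIF alpha subunits HIF1A and EPAS1, and 8 other genes known as targets of hypoxia-inducible factor (HIF). Transcripts were profiled with 2 one-colour Agilent arrays, 1 for SBC-3 cells transfected with #1 siHOTAIR and 1 for SBC-3 cells transfected with siGFP, the control siRNA against green fluorescent protein. SBC-3 is an adherent cell line of small-cell lung cancer (SCLC), and HOTAIR is a long noncoding RNA. The study used 3 siRNAs against HOTAIR, of which #1 alone was hybridized here. With 1 array in each condition there was no replicate, no test between the conditions was possible and no P-value was computed. The arrays read RNA of whole cultures, so a change in some cells and a change in all cells cannot be told apart, and the time from transfection to extraction of the RNA put on the arrays is not given in the sources used here. The siRNA cannot be told apart from its culture and its array, nor HOTAIR loss from any other effect of the #1 sequence.

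Glycolysis splits glucose into pyruvate, and lactate dehydrogenase turns pyruvate into lactate, which leaves the cell through monocarboxylate transporters. Tumor cells often run this route even when oxygen is present. HIF is a transcription factor of an alpha and a beta subunit. When oxygen is present, prolyl hydroxylases mark the alpha subunit for destruction through the VHL protein, so HIF activity is set mainly at the level of the protein and not of the HIF1A transcript. When oxygen is low, HIF binds short hypoxia response elements and raises the transcription of glucose transporters, glycolytic enzymes, VEGFA, CA9 and other genes.

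The 8 other HIF targets among the members all had log2 ratios below 0 in #1 siHOTAIR-transfected cells, from -0.92 to -0.31. Of all genes compared, 47.7% were below 0. Of 30 further genes known to be induced by hypoxia, 14 had ratios above 0 and 16 below 0. Among the 8, all but CA9 were lower by more than 2 SDs of the measurement, beside 28.1% of all genes. With spike-in scaling VEGFA and NDRG1 were not lower by that much either, and 17.0% of all genes were. By the larger error that the scanner software gives, 5 of the 8 were lower by more than 2 SDs, beside 13.0% of all genes. BNIP3, a mitochondrial protein of mitophagy and cell death, was lowest when each gene was given by its brightest probe. A dimmer VEGFA probe, not well above background on the #1 siHOTAIR array, had a ratio of -1.23. The glycolytic enzymes lay between -0.21 and 0.30. The lactate exporter SLC16A3 was the only member that differed at least 2-fold, and it was 2.04-fold higher on a single spot. These log2 ratios are of the processed signal on the #1 siHOTAIR array over that on the siGFP array, after each array was set against its 75th percentile, which was 650.3 and 629.9, respectively. A gene was compared when the scanner software called at least 50% of the spots of its probe well above background on 1 array or on both, and the change of at least 2-fold follows the methods of the study. Probes well above background made up 52.1% of the #1 siHOTAIR array and 55.3% of the siGFP array. Below, signals of a gene are given with #1 siHOTAIR first and siGFP second.

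Of the 33 members, 32 had a named probe and 30 were compared, each with signals well above background on both arrays. The glucose transporter SLC2A3 and the aldolase ALDOC had probes that were well above background on neither array. ALDOA, another aldolase, had no named probe and was not analysed here. Of the 30 members, 1 was at least 2-fold higher and 0 were at least 2-fold lower, whereas 2.74% and 3.41% of the 13014 named genes compared were. Ratios were below 0 for 22 of the 30 members (73.3%), against 47.7% of all genes. The median of the members was -0.16 and that of all genes was 0.02, with quartiles of -0.22 and 0.25. With spike-in scaling the medians were -0.019 for the members and 0.16 for all genes.

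The spread between cultures is unknown, so the only error available is that of the measurement. Repeated spots of probes with 10 spots gave an SD of the log2 ratio of 0.32 for 1 spot at the dimmest of 6 levels of signal and of 0.042 at the brightest, and this SD was divided by the square root of the number of spots of each probe. Of the 30 members, 17 were lower and 7 were higher by more than 2 measurement SDs, and 6 were within them. Among all genes, 28.1% were lower and 31.4% were higher by that much. These counts depended on the scaling, and with scaling to the spike-in RNA 10 members were lower and 11 were higher by that much, against 17.0% and 46.5% of all genes. By the larger error that the scanner software itself gives, 9 members were lower and 4 were higher by more than 2 SDs, against 13.0% and 15.2% of all genes. Neither error covers the difference between 2 cultures treated alike.

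**Figure D1:**
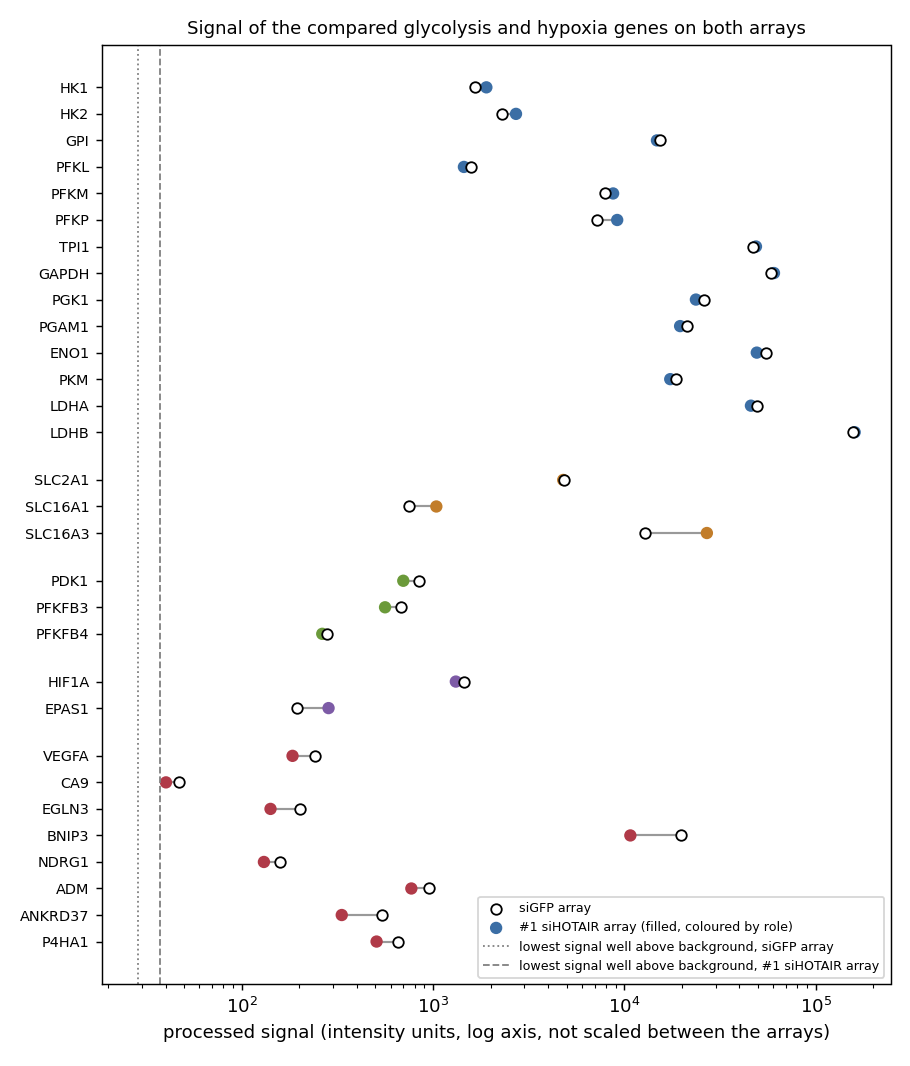
Processed signal in intensity units (log axis, before scaling) of the 30 compared genes, with open circles for the siGFP array and filled circles, coloured by role, for the #1 siHOTAIR array, and vertical lines at the lowest signal well above background on each array, 37.3 for #1 siHOTAIR and 28.6 for siGFP. BNIP3 (10752 and 19690) and SLC16A3 (27012 and 12801) show the widest gaps, and CA9 lies close to the background limits.

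HOTAIR, the target of the siRNA, was read from 1 spot, with a signal of 108 with #1 siHOTAIR and 244 with siGFP, a log2 ratio of -1.22. Of the reference genes, ACTB, the cytoskeletal actin, had a ratio of -0.02 by its brightest probe and -0.05 by a dimmer one. B2M, the light chain of class I molecules, had -0.08, and TBP, the TATA-binding protein, had 0.33. The transcript of the siRNA target was thus lower, and ACTB and B2M lay near 0.

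The alpha subunits of HIF had ratios of opposite sign by their brightest probes. HIF1A, which encodes HIF-1 alpha, had a signal of 1316 with #1 siHOTAIR and 1449 with siGFP, a log2 ratio of -0.19 with a measurement SD of 0.02. All 10 spots of its probe were below 0, from -0.25 to -0.14. A second HIF1A probe, with 1 spot, gave 0.08. The ratio of -0.19 lay within the quartiles of all genes (-0.22 and 0.25), and it was -0.05 with spike-in scaling. EPAS1, which encodes HIF-2 alpha, had signals of 284 and 194, a log2 ratio of 0.50 with an SD of 0.10. Its spots gave 0.70 and 0.31, so EPAS1 was higher by both, and 9.01% of the genes measured on both arrays had a ratio as high.

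All 8 of the other HIF targets had ratios below 0, with a median of -0.42. By more than 2 measurement SDs, 7 of the 8 were lower, beside 28.1% of all genes, and with spike-in scaling 5 were, beside 17.0%. By the larger error of the scanner software, 5 of the 8 were lower by more than 2 SDs, beside 13.0% of all genes. None of them reached 2-fold. BNIP3 had a signal of 10752 with #1 siHOTAIR and 19690 with siGFP, a log2 ratio of -0.92 (measurement SD 0.03), or 1.89-fold lower. Its pair of spots gave -0.93 and -0.91, which differ by less than the measurement error, and 1.92% of the genes measured on both arrays had a ratio as low. ANKRD37, a small ankyrin repeat protein known as a direct HIF-1 target, had 333 and 539 on 1 spot, a log2 ratio of -0.74 (SD 0.11). EGLN3, a prolyl hydroxylase that acts on the HIF alpha subunits and is itself induced by HIF, had 141 and 200, a log2 ratio of -0.55 (SD 0.13). Both EGLN3 spots gave -0.55, and the ratio was -0.33 without background correction.

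VEGFA, the growth factor of blood vessels, was read by 2 probes, which were both lower in #1 siHOTAIR-transfected cells. The brighter had signals of 184 and 241 on 1 spot, a log2 ratio of -0.43 (SD 0.15). The other had 26.0 and 58.4 and was well above background on the siGFP array only, and it was at least 1.61-fold lower when the dim signal was set to the lowest signal well above background. P4HA1, a subunit of the prolyl hydroxylase of collagen, had 507 and 652, a log2 ratio of -0.41 (SD 0.07), with spots at -0.49 and -0.34. ADM, which encodes the vasodilator peptide adrenomedullin, had 770 and 957, a log2 ratio of -0.36 (SD 0.03), and its 9 spots all lay below 0, from -0.43 to -0.23.

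CA9 and NDRG1 were the least certain of the group. CA9, a carbonic anhydrase at the cell surface, had signals of 40.1 and 47.1, and its log2 ratio of -0.35 lay within 2 measurement SDs (SD 0.23). Its spots disagreed, at 0.27 and -0.96, and the second was not well above background on the #1 siHOTAIR array. Without background correction the ratio of CA9 was -0.09. NDRG1, a stress-responsive protein of the NDRG family, had 131 and 158, a log2 ratio of -0.31 (SD 0.15), with spots at -0.54 and -0.07, and -0.16 without background correction. Over all probes of the 8 genes, the dimmer VEGFA probe included, 22 of the 23 spots used were below 0. The exception was the CA9 spot at 0.27, and ADM alone held 9 of the spots. Spots of 1 probe are repeated readings of the same RNA and not replicates of the condition. The share of all spots below 0 is not given here, and 47.7% of all genes compared were below 0.

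**Figure D2:**
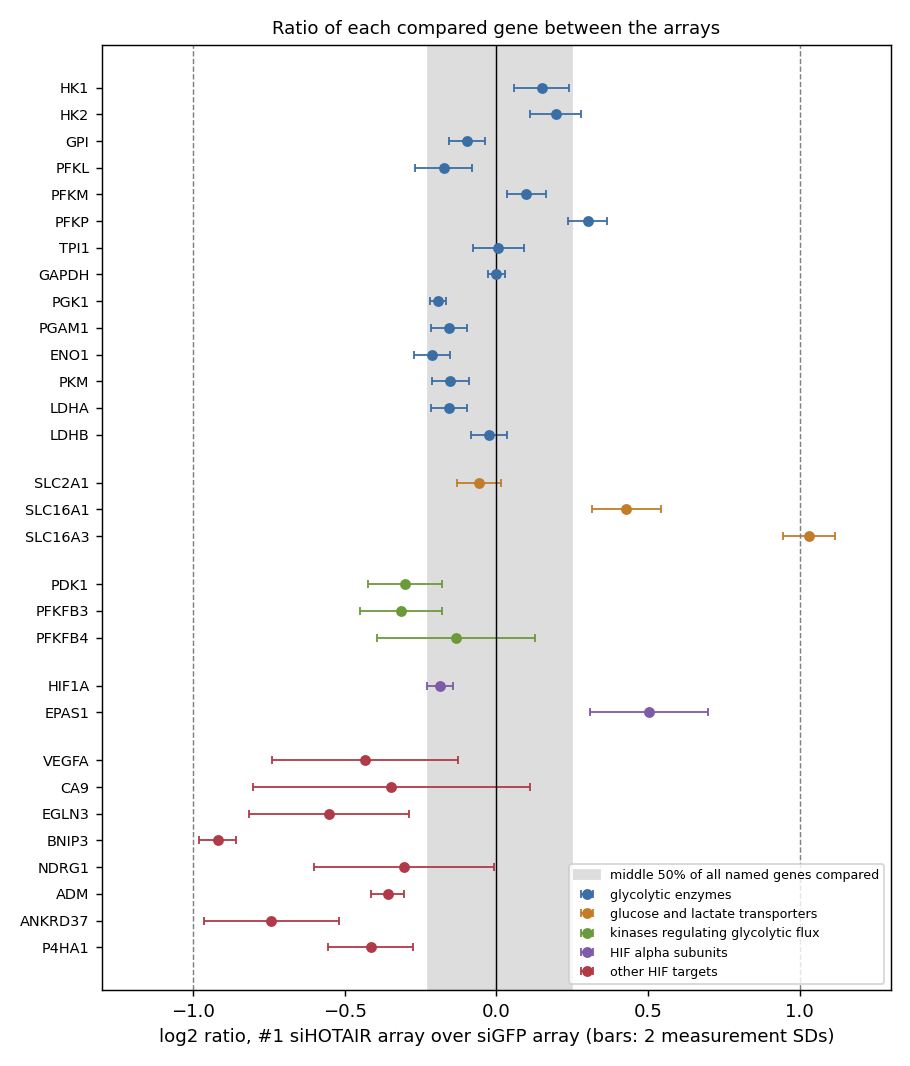
Log2 ratio of each compared gene, #1 siHOTAIR array over siGFP array, with bars of 2 measurement SDs, colours for the roles, dashed lines at a 2-fold change and a grey band for the middle 50% of all named genes compared. All 8 other HIF targets lie left of 0, BNIP3 at -0.92, while the glycolytic enzymes lie between -0.21 and 0.30 and SLC16A3 stands at 1.03.

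The letters of the hypoxia response element were searched for in the RefSeq promoter windows of the members (GRCh38.p14, 250 bases before to 50 bases after the start), as ACGTG or GCGTG on either strand. ACGTG overlaps the E-box CACGTG, which other factors bind. Windows were found for 29 of the 33 members, and VEGFA, NDRG1, SLC16A1 and SLC2A3 had none in the table. At least 1 match was held by 37 of the 56 windows of the members (66.1%), against 48.4% of all 35116 windows. ACGTG was in 37.5% of the members' windows and 21.4% of all windows, and GCGTG was in 41.1% and 36.5%. Of the other HIF targets, 5 of 6 windows held a match, and that of EGLN3 held none. Of the enzymes, 22 of 36 windows did.

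The stretch of 60 bases before the start with the most matching letters is shown for the HIF targets with the lowest ratios and a window match, BNIP3 and ANKRD37, for the member with the highest ratio, SLC16A3, and for PGK1 and LDHA, enzymes known as HIF targets whose ratios were -0.19 and -0.16. Each is written 5′ to 3′ on the strand of its gene, and capitals mark the letters of either motif or its reverse complement.
BNIP3: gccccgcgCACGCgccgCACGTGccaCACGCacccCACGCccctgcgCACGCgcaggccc
ANKRD37: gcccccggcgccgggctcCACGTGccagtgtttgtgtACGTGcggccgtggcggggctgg
SLC16A3: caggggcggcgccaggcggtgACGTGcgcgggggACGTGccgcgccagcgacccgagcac
PGK1: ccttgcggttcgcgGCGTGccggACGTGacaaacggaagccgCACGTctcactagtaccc
LDHA: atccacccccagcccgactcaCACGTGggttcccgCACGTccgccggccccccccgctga
The BNIP3 stretch is at chr10:131982015-131982074 on the minus strand, 151 to 92 bases before the start, and held 6 matches. That of ANKRD37 is at chr4:185396661-185396720 on the plus strand, 180 to 121 bases before the start, with 3 matches. That of SLC16A3 is at chr17:82228953-82229012 on the plus strand, with 2 matches, and lies before 1 of the 5 starts that the table gives for the gene. That of PGK1 is at chrX:78104023-78104082 on the plus strand, 225 to 166 bases before the start, with 3 matches. That of LDHA is at chr11:18394455-18394514 on the plus strand, before 1 of its 2 starts, with 3 matches. Matches were counted on both strands, so each CACGTG was counted once per strand. The genes shown were lower, higher or little changed on these arrays. They were picked by their ratio or as known HIF targets, and each stretch was picked for its matches. No relation of matches to direction can therefore be read from them. A match is a description of these letters and not a site shown to be bound, and no binding was measured.

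**Figure D3:**
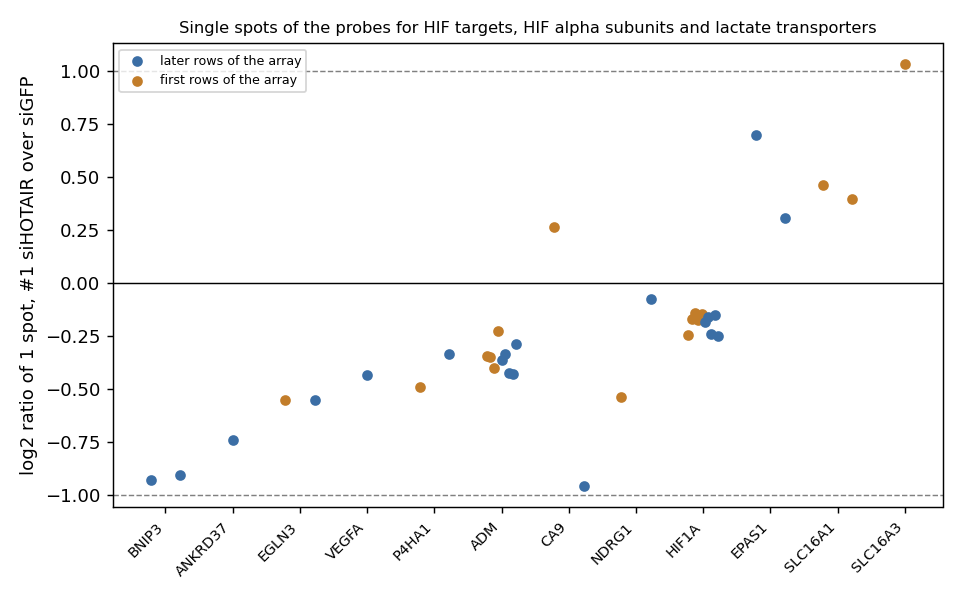
Log2 ratio of each single spot used, #1 siHOTAIR over siGFP, for the probe of each of 12 genes, coloured by the position of the spot on the array (in the first rows, which hold 37.5% of the spots, or after them) with dashed lines at a 2-fold change. The spots of BNIP3, EGLN3, ADM and HIF1A lie close together, those of CA9 lie on both sides of 0, and SLC16A3 rests on 1 spot.

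Along the glycolytic route, the uptake of glucose was read from SLC2A1, the transporter GLUT1 and a known HIF target, which had signals of 4791 with #1 siHOTAIR and 4826 with siGFP. Its log2 ratio of -0.06 was within 2 measurement SDs (SD 0.04), and its sign depended on the scaling. The signals of the enzymes that follow were likewise close between the arrays. Of the 14 enzymes compared, 0 changed at least 2-fold, 5 had ratios above 0 and 9 below 0, and the median was -0.06. By more than 2 measurement SDs, 4 were higher and 7 were lower, beside 31.4% and 28.1% of all genes. With spike-in scaling these counts turned to 7 higher and 2 lower, beside 46.5% and 17.0% of all genes. The direction of the enzymes thus depended on the scaling, which moved all genes alike.

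From glucose to the triose phosphates, the enzymes differed in direction. HK1 and HK2, the hexokinases that phosphorylate glucose, had log2 ratios of 0.15 (1900 and 1659) and 0.20 (2714 and 2295). Of the subunits of phosphofructokinase, which commits glucose to glycolysis, PFKP had 9177 and 7208, a log2 ratio of 0.30 (SD 0.03) with spots at 0.30 and 0.31, and a second probe gave 0.17. PFKM had a ratio of 0.10 (8736 and 7902), whereas PFKL had -0.17 (1450 and 1585), so the 3 subunits did not move one way. GPI, which turns glucose 6-phosphate into fructose 6-phosphate, had -0.10 (14811 and 15327).

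The enzymes from the triose phosphates to lactate had ratios from -0.21 to 0.01. TPI1, which interconverts the triose phosphates, had 48778 and 47023 on 1 spot, a ratio of 0.01, and GAPDH, often used as a reference gene, had 60585 and 58649 over 9 spots, a ratio of 0.00. PGK1, which makes the first ATP of the route, had 23675 and 26191, a log2 ratio of -0.19 (SD 0.01), and all 10 of its spots were below 0, from -0.25 to -0.09. PGAM1, the phosphoglycerate mutase, had -0.16 (19572 and 21140). ENO1, the enolase, had -0.21 (49266 and 55241), the lowest of the enzymes. PKM, the pyruvate kinase, had -0.15 (17378 and 18727). LDHA, which favors the making of lactate, had -0.16 by one probe (45917 and 49473) and -0.18 by another, while LDHB, the other subunit of lactate dehydrogenase, had -0.02 (160040 and 157674). From PGK1 to LDHA, these 5 enzymes were each lower by more than 2 measurement SDs but by at most 1.16-fold, and 23.0% of all genes measured on both arrays had a ratio as low as that of ENO1. By the larger error that the scanner software gives, only 1 of the 14 enzymes compared was lower by more than 2 SDs, and 1 was higher. Of all genes, 13.0% were lower and 15.2% were higher by that error. With spike-in scaling, PGK1 and ENO1 were still lower by more than 2 measurement SDs, beside 17.0% of all genes. PGAM1, PKM and LDHA, each at -0.02 to -0.01, were then within them. The sign of GPI, TPI1, GAPDH and LDHB depended on the scaling. With spike-in scaling TPI1, GAPDH and LDHB were higher by more than 2 measurement SDs, at 0.14, 0.14 and 0.11. By that scaling 46.5% of all genes were higher by that much, and the median of all genes was 0.16, above these 3 enzymes.

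Lactate export stood apart from the enzymes. SLC16A3, the monocarboxylate transporter MCT4 that exports lactate from glycolytic cells, had a signal of 27012 with #1 siHOTAIR and 12801 with siGFP, a log2 ratio of 1.03 (measurement SD 0.04). Of the genes measured on both arrays, 1.28% had a ratio as high. This value came from 1 spot in row 7 of the array, counted from the first. The first rows of the array, with 37.5% of all spots, contained 71.8% of the 546 spots at least 4-fold higher and 58.3% of the 357 spots at least 4-fold lower, dim spots included. The part of this position in the SLC16A3 value was not tested, and no spot outside those rows carried the gene. SLC16A1, the transporter MCT1, had 1040 and 748, a log2 ratio of 0.43 (SD 0.06), and its spots, in the same rows, gave 0.46 and 0.39. Both lactate transporters were thus higher. SLC16A3, itself known as a HIF target, differed in direction from the 8 genes listed as other HIF targets. It was not alone in this, as 14 of the 30 further hypoxia-induced genes compared had ratios above 0 and 16 below 0.

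All 3 kinases that set the flow had ratios below 0, with a median of -0.30. PDK1, which inhibits pyruvate dehydrogenase and so keeps pyruvate from the mitochondria, had signals of 699 and 841, a log2 ratio of -0.30 (SD 0.06), with spots at -0.54 and -0.06. PFKFB3, which makes the activator of phosphofructokinase, had 561 and 676, a log2 ratio of -0.32 (SD 0.07), and a second, dimmer probe with 1 spot gave 0.17. PFKFB4, a related kinase, had 263 and 280 on 1 spot, a log2 ratio of -0.13, within 2 measurement SDs. All 3 are known HIF targets, none of them changed by 1.5-fold, and the sign of PFKFB4 depended on the scaling.

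The rest of the pathways did not show one direction. Of 39 further genes known to be induced by hypoxia, 30 were compared, 0 were at least 2-fold higher or lower, 14 had ratios above 0 and 16 below 0, and the median was -0.02. Among those well above background on both arrays, KCTD11 was lowest at -0.53 (364 and 508), and SLC6A8, the creatine transporter, was highest at 0.75 (2592 and 1495). A second SLC6A8 probe gave -0.83, so its direction depended on the probe. By more than 2 measurement SDs, 8 of the 30 genes (26.7%) were higher and 11 (36.7%) were lower. These shares stood beside 31.4% and 28.1% of all genes.

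Of the oxygen sensing machinery, 14 of 15 genes were compared, with a median of 0.03 and 0 genes changed at least 2-fold. CITED2, which competes with HIF for its coactivators and is itself induced by HIF, was lowest at -0.66 (273 and 417), and the coactivator EP300 was highest at 0.35 (173 and 131). A second, dimmer CITED2 probe with 1 spot, not well above background on the #1 siHOTAIR array, gave -0.16 (41.0 and 44.5). The EP300 spots gave 0.15 and 0.56. By more than 2 measurement SDs, 5 of the 14 genes were higher and 6 were lower, beside 31.4% and 28.1% of all genes.

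Of the isozymes and side enzymes of glycolysis, 21 of 33 genes were compared, with a median of 0.03. TIGAR, a phosphatase that lowers the activator of phosphofructokinase and is known as a p53 target, had 785 with #1 siHOTAIR and 276 with siGFP, a log2 ratio of 1.46 (SD 0.08), with spots at 1.36 and 1.56. It was the only gene of these lists that changed at least 2-fold while well above background on both arrays. BSG, the chaperone of the lactate transporters, was lowest at -0.41 (6421 and 8230), opposite in direction to SLC16A1 and SLC16A3. SLC2A4, the insulin-responsive glucose transporter, was well above background on the #1 siHOTAIR array only (76.0 against 26.4) and at least 2.57-fold higher.

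The entry of pyruvate into mitochondria was read from 14 genes with a median of 0.01, from PDK2, another inhibitor of pyruvate dehydrogenase, at -0.50 (225 and 308) to DLD, a subunit of that complex, at 0.67 (451 and 274). The pentose phosphate pathway had 8 of 9 genes compared and a median of -0.11, and PGLS, the lactonase, was lowest at -0.40 (10217 and 13102). In neither list did a gene change at least 2-fold. Of gluconeogenesis, 2 of 6 genes were compared, the mitochondrial enzyme PCK2 at -0.71 (535 and 847) and G6PC3 at -0.23 (718 and 814). A second PCK2 probe gave 0.03 (115 and 109), with spots at -0.25 and 0.31, so its direction depended on the probe.

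**Figure D4:**
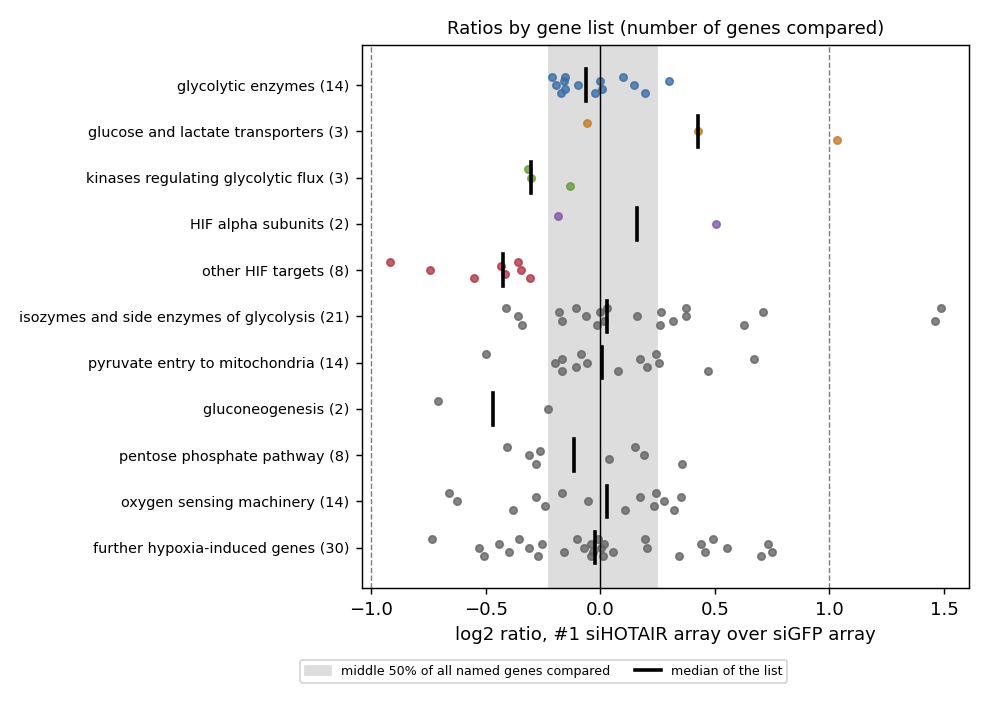
Log2 ratio of every compared gene by list, #1 siHOTAIR array over siGFP array, with the number of genes in brackets, a black bar at each median, a grey band for the middle 50% of all named genes compared and dashed lines at a 2-fold change. The other HIF targets have a median of -0.42 with all 8 genes below 0, while the 30 further hypoxia-induced genes spread to both sides of 0 with a median of -0.02.

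The labelled cell type was checked against its markers. Of 11 neuroendocrine markers, 3 were well above background on both arrays (ENO2, DLL3 and NEUROD1), 3 on the #1 siHOTAIR array only (CHGA, CHGB and NCAM1) and 5 on neither, among them INSM1 and SYP. CHGB and NCAM1 passed by 1 of the 2 spots of a probe, which lay in the first rows of the array (78.2 against 9.94 for the other spot of CHGB, and 67.8 against 9.57 for NCAM1). NEUROD1 was lower in #1 siHOTAIR-transfected cells at -0.85 (213 and 372) and ENO2 at -0.36 (620 and 770), while CHGA was at least 2.44-fold higher (72.3 and 10.6). DLL3 was higher at 0.21 (681 and 570). The summed signal of the list was 1746 with #1 siHOTAIR and 1790 with siGFP and does not show these opposite differences. Of the markers of non-neuroendocrine SCLC, YAP1, MYC and REST had signals well above background on both arrays and POU2F3 on neither, with sums of 14952 and 14568. Both arrays read the epithelial keratins KRT8 and KRT18 well above background, and CDH1 was so on neither (sums of 3274 and 3185). EPCAM passed on the siGFP array only, by 1 spot of 81.5 whose partner read 7.72. Of 6 fibroblast markers, COL1A1 and COL1A2 passed on both arrays and COL3A1, DCN, LUM and PDGFRB on neither, with sums of 4630 and 4186, and COL1A2 read 3760 and 3742. Of 6 markers of blood and endothelium, PTPRC and CD14 were above background and CD3E, HBB, PECAM1 and VWF were not (277 and 242). PTPRC was so on both arrays by 1 probe only, with 1 spot in the first rows of the array (106 and 61.0). COL1A1 was higher in #1 siHOTAIR-transfected cells (832 and 415), and the relation of these marker differences to the values above was not tested.

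The median of the enzymes changed sign with spike-in scaling, which by construction shifts all genes alike and is no result about the enzymes. All 8 HIF targets were below 0 as reported and under 13 alternatives, among them 4 other scalings. The alternatives reuse the same arrays and are not independent checks. Other filters and the bound for dim signals left all 8 values as reported, so these settings could not change the count. The choices among probes changed VEGFA alone. The share of all genes below 0 ranged from 32.5% with spike-in scaling to 51.2% with scaling to the median of detected probes. The median of the HIF targets minus that of the enzymes ranged from -0.42 to -0.25. A shift common to all genes cannot move this difference. It was -0.36 as reported, with scaling to the median of detected probes, with spike-in scaling and without scaling. Of the 14 enzymes, 9 were below 0 as reported, beside 47.7% of all genes. After scaling to the spike-in RNA, which raised all genes by 0.14, 6 were, beside 32.5% of all genes.

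**Figure D5:**
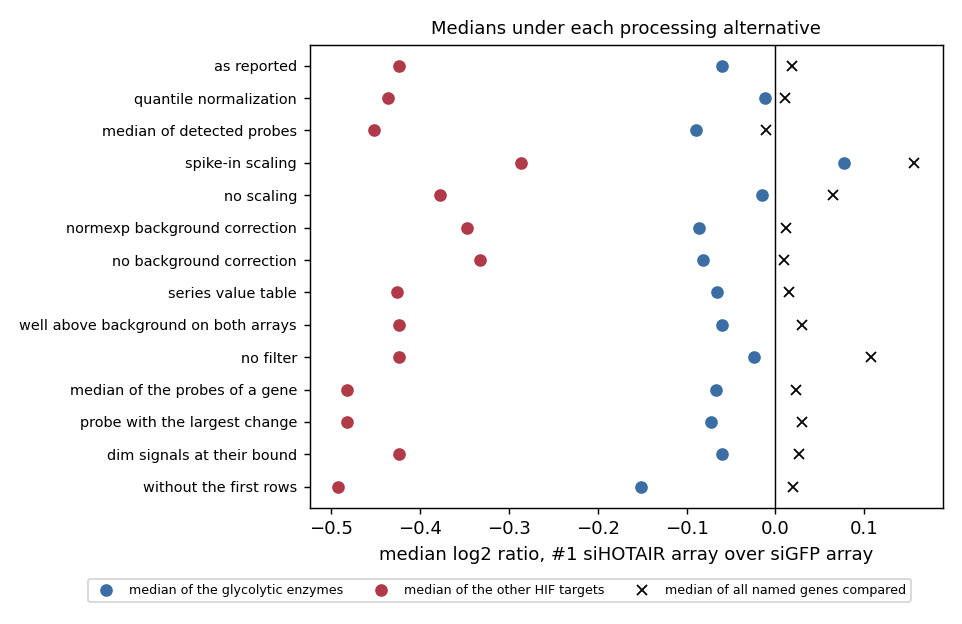
Median log2 ratio, #1 siHOTAIR array over siGFP array, of the glycolytic enzymes, of the other HIF targets and of all named genes compared, as reported and under 13 processing alternatives. The HIF targets stay below 0 in each, while the enzymes move from -0.06 as reported to 0.08 with spike-in scaling. Other filters and the bound for dim signals could not move the HIF targets.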

How the data were processed

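Total RNA of #1 siHOTAIR- and siGFP-transfected SBC-3 cells was labelled with Cy3 by the authors and hybridized to SurePrint G3 8x60K arrays. The deposited processed signal is an intensity in arbitrary units, background-subtracted and detrended by Agilent Feature Extraction 10.10.1.1 per the file headers, and not normalized between arrays. The authors' series value table equals the background-subtracted intensity (largest difference 0). Both arrays were on the same slide. The P-value and gene ontology steps that the methods name were not run here.

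Spots marked as outliers were left out (393 and 375 of 58717 spots that are not controls). The log2 of the 75th percentile of an array was subtracted from its log2 signals, the spots of a probe were averaged, and each gene was given by its compared probe with the highest mean signal. Accessions were matched without versions to a RefSeq table (GRCh38.p14, names only), which named 96.8% of the probes with NM_ accessions. The signal of a probe depends on its sequence, so sums over a list are only descriptive. Cross-hybridization to near-identical copies, such as the pseudogenes of GAPDH, was not examined. Python 3.11.15, numpy 2.4.6, pandas 2.3.3 and, for normexp, limma 3.58.1 were used.

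The members and lists were chosen with earlier results of these data known. Named genes were all members, HOTAIR, ACTB and other reference genes, the highest and lowest gene of each pathway list among those well above background on both arrays, and every such gene changed at least 2-fold. Not every such gene is reported here. SLC2A4, the cell type markers given with ratios, and the limit of 2 measurement SDs, were chosen after values were seen. The alternatives were other scalings, background corrections, filters, thresholds and probe choices, and leaving out the first rows of the array, which hold 37.5% of the spots and where earlier results had found changed spots more often. For normexp the median signal of a spot replaced its mean.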

Additional observations from a re-analysis of the deposited data

How the results depend on the processing

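No paired analysis was possible because each condition had 1 array, and leaving out a replicate was not possible either. The count of members at least 2-fold higher was 1 as reported, 0 without the first rows of the array, where the only SLC16A3 spot lies, and 0 at a threshold of 3-fold. The count of members at least 2-fold lower was 0 as reported, 1 (VEGFA) with the probe with the largest change and 2 (ANKRD37 and BNIP3) at 1.5-fold. The median of all members was -0.16 as reported, -0.019 with spike-in scaling and -0.11 without scaling. The median of the glycolytic enzymes was -0.06 as reported, -0.012 with quantile normalization, -0.015 without scaling, -0.025 without the filter and -0.15 without the first rows, and it was reversed to 0.077 with spike-in scaling, which shifts every gene by 0.14 by construction. The median of the other HIF targets was -0.42 as reported and -0.29 with spike-in scaling. The cause of the other shifts was not tested. SLC16A3 ranged from 1.00 to 1.17 under 12 alternatives and BNIP3 from -0.95 to -0.78 under 13. With normexp, EGLN3 was -0.37, CA9 -0.09 and NDRG1 -0.17. Without the first rows of the array, CA9 was -0.96, NDRG1 -0.07 and PDK1 -0.06, each on its remaining spot. Signal over background limits CA9 and the dimmer VEGFA probe most, and arrays of 1 culture each leave the biological spread unmeasured.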
